A study of Mus musculus with 32 samples.

Results

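The comparison described here sets dark zone germinal centre B cells against naive B cells of mice with activated PIK3CD signalling, and it used 8 of the 32 libraries of the series: 4 dark zone and 4 naive libraries. They were chosen by sample title and column name, as every library titled aPIK3CD of those populations. For each library, 500 spleen cells were sorted straight into SMART-Seq v4 Ultra Low Input reaction buffer. Donor mice were C57BL/6, 12 weeks old, and had received NP-CGG in alum by the intraperitoneal route 14 days earlier. The remaining libraries hold the light zone and plasma cell populations of aPIK3CD mice, and all 4 populations of WT mice. Both genotypes carried AID-cre, a Cre recombinase allele, so the WT and aPIK3CD groups share that allele. The study design asks what activated PIK3CD signalling does to the transcriptomes of these populations. How the activated allele was built, the sort gates, and whether each number is 1 mouse are not given in the sources used here, so p-values measure the spread between samples, which may be technical. The genotype field of number 1 in each aPIK3CD population reads AID-cre WT, against its title and column name, and counts without number 1 are given below.

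After immunisation, B cells that recognise the antigen enter germinal centres. Cells of the dark zone divide and mutate their antibody genes, and cells of the light zone test the result against antigen and T cell help. Naive B cells are resting cells that circulate through follicles. PIK3CD is the p110 delta catalytic subunit of PI3K, which acts through AKT to keep FOXO1 out of the nucleus. FOXO1 is needed for the dark zone programme and also drives homing receptors of naive cells.

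Dark zone libraries held 1154809 to 1941224 counts and naive libraries 2332364 to 2688981 counts, so the ranges of depth did not overlap. Between 14606 and 15661 genes were detected in dark zone libraries, against 13790 to 14229 in naive libraries. No tested gene exceeded 1.88 counts per exonic base in a library, and 31 tested genes exceeded 1. Whether counts of the most abundant genes were held at a ceiling was not tested. Levels below are CPM, counts scaled to a common total on normalised library sizes. CPM is not corrected for gene length, so it compares libraries and not genes. Differences are log2 fold changes of dark zone over naive from edgeR's quasi-likelihood test, called at a Benjamini-Hochberg adjusted p below 0.05 over all genes tested, and adjusted p below means that test. A gene said to have risen or fallen passed it.

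Of 10470 genes tested, 4563 were called (43.6%). Of these, 2320 were higher in dark zone cells (22.2%) and 2243 lower (21.4%), and 1369 rose (13.1%) and 1457 fell (13.9%) by more than 2-fold. The 4 and 4 libraries did not overlap for 4495 genes (42.9%), 22.6% higher and 20.4% lower. List members that were not tested had counts too low for the filter. The median log2 fold change over all tested genes was -0.01. Without number 1 of both groups, 1908 genes were higher and 1828 lower. With the log2 total count of each library as a covariate, 610 were higher and 339 lower. Population and depth cannot be told apart fully in these libraries: of the 4563 called genes, 4371 kept their sign with the covariate and 923 their call. Cell composition and RNA per cell cannot be told apart either, since fewer cells of a type and less of an RNA per cell give the same value in a bulk library.

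Promoters of 5 genes are printed first, because many members of the cell cycle and interferon gene lists moved together. They are RefSeq sequences (GRCm38.p6), from 250 bases before to 50 bases after the annotated start, 5′ to 3′ on the strand of the gene. Cenpe is the first, a kinesin that holds chromosomes to the spindle (chr3:135212313-135212612, plus strand). Cdca8 encodes borealin of the chromosomal passenger complex (chr4:124936868-124937167, minus strand). In both, capitals mark the CHR element (TTTGAA or TTCGAA) and the CCAAT box, each in either direction.
Cenpe: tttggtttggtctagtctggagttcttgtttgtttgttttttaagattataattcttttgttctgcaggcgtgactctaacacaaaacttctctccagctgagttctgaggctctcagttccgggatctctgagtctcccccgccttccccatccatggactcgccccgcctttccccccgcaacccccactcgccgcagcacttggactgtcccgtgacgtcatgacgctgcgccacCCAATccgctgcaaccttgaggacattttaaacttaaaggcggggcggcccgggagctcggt
Cdca8: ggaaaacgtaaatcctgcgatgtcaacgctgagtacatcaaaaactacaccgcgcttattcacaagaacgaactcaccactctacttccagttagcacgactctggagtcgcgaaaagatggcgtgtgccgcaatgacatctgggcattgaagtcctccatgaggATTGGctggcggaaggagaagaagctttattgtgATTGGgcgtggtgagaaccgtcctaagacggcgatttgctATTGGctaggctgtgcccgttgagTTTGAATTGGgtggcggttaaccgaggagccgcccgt

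Clspn encodes claspin, which carries the replication checkpoint signal (chr4:126556730-126557029, plus strand), and Cdc6 loads the MCM helicase at origins (chr11:98907901-98908200, plus strand). Capitals in these mark CCAAT and the E2F site, searched as TTTCCCGC, TTTCGCGC, TTTGCCGC or TTTGGCGC on both strands. Igtp is an interferon-induced GTPase (chr11:58199306-58199605, plus strand). Its capitals mark the core of the interferon-stimulated response element, GAAA, any 2 bases and GAAA again, on both strands, and Igtp was chosen after its values were seen, as the member with the smallest p that fell and holds this core.
Clspn: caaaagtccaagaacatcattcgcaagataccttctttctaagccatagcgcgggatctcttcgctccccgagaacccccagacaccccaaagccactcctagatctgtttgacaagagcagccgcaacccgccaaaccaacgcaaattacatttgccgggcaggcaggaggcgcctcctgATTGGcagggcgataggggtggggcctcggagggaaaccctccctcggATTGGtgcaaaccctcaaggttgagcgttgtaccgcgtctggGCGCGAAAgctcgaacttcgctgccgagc
Cdc6: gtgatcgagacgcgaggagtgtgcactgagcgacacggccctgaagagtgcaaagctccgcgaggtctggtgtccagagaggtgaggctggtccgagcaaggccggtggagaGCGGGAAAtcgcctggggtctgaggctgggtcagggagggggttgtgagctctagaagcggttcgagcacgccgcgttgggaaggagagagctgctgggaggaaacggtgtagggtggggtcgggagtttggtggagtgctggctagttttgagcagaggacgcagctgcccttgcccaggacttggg
Igtp: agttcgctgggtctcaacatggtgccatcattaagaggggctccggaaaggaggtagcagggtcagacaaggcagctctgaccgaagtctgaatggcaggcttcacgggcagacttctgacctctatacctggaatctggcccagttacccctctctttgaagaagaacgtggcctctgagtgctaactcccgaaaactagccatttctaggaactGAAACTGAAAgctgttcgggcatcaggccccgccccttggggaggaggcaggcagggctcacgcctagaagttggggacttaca

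Each search could overlap another, as in Cdca8, where the CHR element and a CCAAT box share bases. The CHR element was found in 35 of 45 G2/M promoters (77.8%), against 14.5% of 7922 promoters of tested genes and 19.4% of all 27025 promoters. The Cenpe window holds no CHR letters and 1 CCAAT box. CCAAT stood in 77.8% of G2/M and 61.9% of replication promoters, against 39.8% of tested genes and 37.9% of all promoters. The E2F site stood in 15 of 42 replication promoters (35.7%), against 4.54% and 2.32%. The interferon core stood in 11 of 19 interferon promoters (57.9%), against 3.32% and 3.49%. A FOXO site (TGTTTAC on both strands) stood in 1 of 12 FOXO1 target promoters, against 2.41% of tested genes and 3.55% of all promoters. These are matches of letters and do not show binding.

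Most defining genes of both populations followed the labels, and Cxcr4, described below, overlapped between them. S1pr2 had 379, 444, 366 and 579 CPM in dark zone libraries, against 5.39, 0.840, 0 and 0 CPM in naive libraries (log2 fold change 8.07, SE 0.50, adjusted p = 1.67e-07). S1pr2 is the sphingosine receptor that confines cells to germinal centres. Naive number 1 held most of its naive counts, and with that library left out the ratio was 1655 from 2 naive counts (95% counting interval 458 to 13673). The level of Fas was 371, 347, 407 and 265 CPM in dark zone libraries, against 31.6, 25.2, 25.4 and 23.4 CPM in naive libraries, a log2 fold change of 3.72 (SE 0.18, adjusted p = 3.63e-08). Fas, a death receptor that marks germinal centre B cells, thus separated without overlap. Gcsam, a germinal centre signalling adaptor, had 594, 633, 799 and 597 CPM in dark zone libraries, against 0, 0, 0.410 and 0 CPM in naive libraries. With 1 naive count in all, its ratio was 6562 (95% counting interval 1177 to 259245). Bcl6 measured 121, 191, 128 and 141 CPM in dark zone and 9.63, 36.1, 15.6 and 24.9 CPM in naive libraries (log2 fold change 2.75, SE 0.34, adjusted p = 4.71e-05). Bcl6, the repressor that defines the germinal centre, was higher in each dark zone library than in any naive library, and its adjusted p was 0.0681 with the depth covariate.

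Of 21 listed germinal centre genes, 19 were tested: 16 rose, 1 fell and 2 were not called, with a median log2 fold change of 4.18. Mybl1, a MYB family factor of germinal centre B cells, had 273, 398, 307 and 291 CPM in dark zone libraries, against 0, 0.840, 0.410 and 0 CPM in naive libraries. Mef2b (5.81), Rgs13 (5.34) and Eaf2 (4.02) also rose, on the log2 scale. Mef2b is a transcription factor that acts upstream of Bcl6, and Rgs13 dampens chemokine receptor signals. Lmo2 fell (log2 fold change -0.93, adjusted p = 4.46e-05), and Gcnt1 was not called (-0.12, adjusted p = 0.724). Cxcr4 had 64.8, 87.7, 57.9 and 49.5 CPM in dark zone libraries, against 90.5, 75.6, 70.9 and 94.4 CPM in naive libraries (log2 fold change -0.36, SE 0.22, adjusted p = 0.211). Cxcr4, the receptor that draws cells to the dark zone, thus overlapped between the populations.

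**Figure D1:**
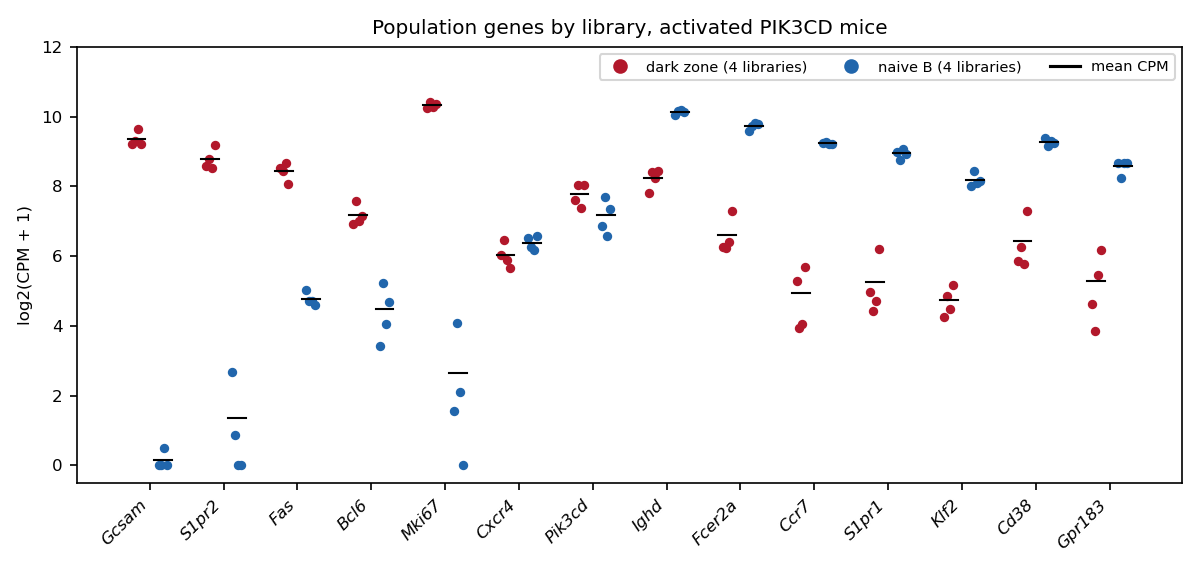
Levels of 14 genes in each library as log2(CPM + 1), dark zone libraries (red) left of naive libraries (blue), with a line at the mean CPM. Gcsam is at or near 0 in every naive library, Cxcr4 and Pik3cd overlap between the populations, and naive B cell genes from Ighd to Gpr183 are lower in all dark zone libraries.

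Genes of naive follicular B cells were lower in dark zone cells: 17 of 20 fell, 1 rose (St6gal1, 0.42, which lost its call without any 1 of 6 libraries) and 2 were not called (Cd22 and Tnfrsf13c), with a median log2 fold change of -2.99. For Ccr7, values were 38.3, 14.3, 15.6 and 50.2 CPM in dark zone libraries, against 611, 623, 599.6 and 589.6 CPM in naive libraries, a log2 fold change of -4.30 (SE 0.29, adjusted p = 2.99e-07). Ccr7 guides lymphocytes into lymphoid tissue. S1pr1 measured 30.3, 20.6, 25.2 and 73.0 CPM in dark zone and 507, 434, 541 and 490.0 CPM in naive libraries (log2 fold change -3.70, SE 0.30, adjusted p = 1.48e-06). S1pr1 is the sphingosine receptor by which lymphocytes leave tissue. Klf2 had 18.1, 27.7, 21.5 and 35.2 CPM in dark zone libraries, against 256, 347, 273 and 282 CPM in naive libraries (log2 fold change -3.50, SE 0.21, adjusted p = 1.54e-07). Klf2, a factor of resting lymphocytes, and these receptors separated without overlap.

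The other naive genes fell in the same libraries. Fcer2a reached 76.0, 74.3, 83.1 and 154 CPM in dark zone libraries, against 772, 845, 902 and 884 CPM in naive libraries, a log2 fold change of -3.13 (SE 0.21, adjusted p = 2.73e-07). Fcer2a is CD23, a low-affinity IgE receptor of follicular B cells. Ighd measured 225, 339, 299.9 and 349 CPM in dark zone and 1061, 1137, 1170.4 and 1127 CPM in naive libraries (log2 fold change -1.89, SE 0.12, adjusted p = 2.69e-07). Ighd, the constant region of surface IgD, exceeded 1 count per exonic base in at least 1 library. Cd38 had 56.9, 76.1, 53.4 and 156 CPM in dark zone libraries, against 665, 568, 625 and 609 CPM in naive libraries (log2 fold change -2.85, SE 0.27, adjusted p = 5.99e-06). Cd38 is an ectoenzyme that mouse germinal centre B cells lose. The level of Gpr183 was 23.9, 13.4, 43.1 and 71.0 CPM in dark zone libraries, against 404, 305, 409 and 410.1 CPM in naive libraries, a log2 fold change of -3.32 (SE 0.34, adjusted p = 1.04e-05). Gpr183 is the oxysterol receptor EBI2, and its adjusted p was 0.0939 with the depth covariate. Satb1 (-3.96), a chromatin organiser, Bcl2 (-4.01), the survival protein of resting B cells, and Cd55 (-3.20), a complement regulator, fell as well, on the log2 scale. Dark zone number 4 had the highest level among dark zone libraries for Fcer2a, Ccr7, S1pr1, Klf2, Cd38 and Gpr183. The 20 naive genes summed to 3119 to 3930 CPM in dark zone libraries, highest in number 4, against 10911 to 11531 CPM in naive libraries, and without that library the list's median was -3.35.

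Genes of mitosis rose together: 51 of 52 G2/M genes rose, all by more than 2-fold, and none fell, with a median log2 fold change of 4.50. Together they summed to 15057 to 16488 CPM in dark zone libraries, against 1070 to 1893 CPM in naive libraries. Mki67 measured 1224, 1365, 1230.0 and 1309 CPM in dark zone and 1.93, 15.96, 3.28 and 0 CPM in naive libraries (log2 fold change 7.96, SE 0.49, adjusted p = 1.64e-07). Mki67, the Ki-67 protein of dividing cells, was at 0 in naive number 4 and highest in naive number 2, and its log2 fold change was 9.51 without naive number 2. Cenpe had 913, 890.4, 866 and 772 CPM in dark zone libraries, against 10.01, 6.72, 9.02 and 5.20 CPM in naive libraries (log2 fold change 6.79, SE 0.17, adjusted p = 1.04e-10). Cenpe, whose promoter is printed above, was the G2/M gene with the smallest p. For Cdca8, values were 541, 527, 481 and 474 CPM in dark zone libraries, against 12.3, 27.3, 19.3 and 8.54 CPM in naive libraries, a log2 fold change of 4.92 (SE 0.26, adjusted p = 5.58e-08). Cdca8 and the kinase Aurkb (3.28) belong to the same complex. Tpx2 (6.41), Ccnb1 (5.26), Top2a (5.13), Plk1 (5.03) and Cdk1 (4.60), a spindle assembly factor, a mitotic cyclin, a topoisomerase and a pair of mitotic kinases, rose too, on the log2 scale. Tpx2 and Top2a stood at 9.06 and 5.81 without naive number 2. Pttg1, which encodes securin, was the one not called (-0.22, adjusted p = 0.361).

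Replication genes rose in 47 of 51 cases and none fell, with a median log2 fold change of 2.06. Mcm10, which activates the replicative helicase, had 82.9, 110.1, 100.2 and 173 CPM in dark zone libraries, against 0 CPM in all 4 naive libraries, at least 392-fold higher with the naive group set at the floor of 3 counts. Cdc6 had 229, 121, 201 and 224 CPM in dark zone libraries, against 0, 0, 0.410 and 0 CPM in naive libraries, a ratio of 2029 from 1 naive count (95% counting interval 363 to 80190.3). Clspn measured 316, 382, 353 and 320.0 CPM in dark zone and 0, 0.840, 1.23 and 0.371 CPM in naive libraries (log2 fold change 9.03, SE 0.31, adjusted p = 1.84e-09). These 3 genes were at or near 0 in each naive library. The helicase subunits Mcm2 (1.96), Mcm3 (2.06), Mcm5 (2.48) and Mcm7 (1.69) rose less, and so did the clamp loader subunit Rfc1 (1.79). Pola1 (4.06), Rrm2 (4.88) and Tyms (3.62), of DNA and nucleotide synthesis, rose more. Cdt1, Gins4, Pold2 and Fen1 were not called. With the depth covariate, 44 G2/M and 37 replication genes kept a call, with medians of 4.26 and 2.35.

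**Figure D2:**
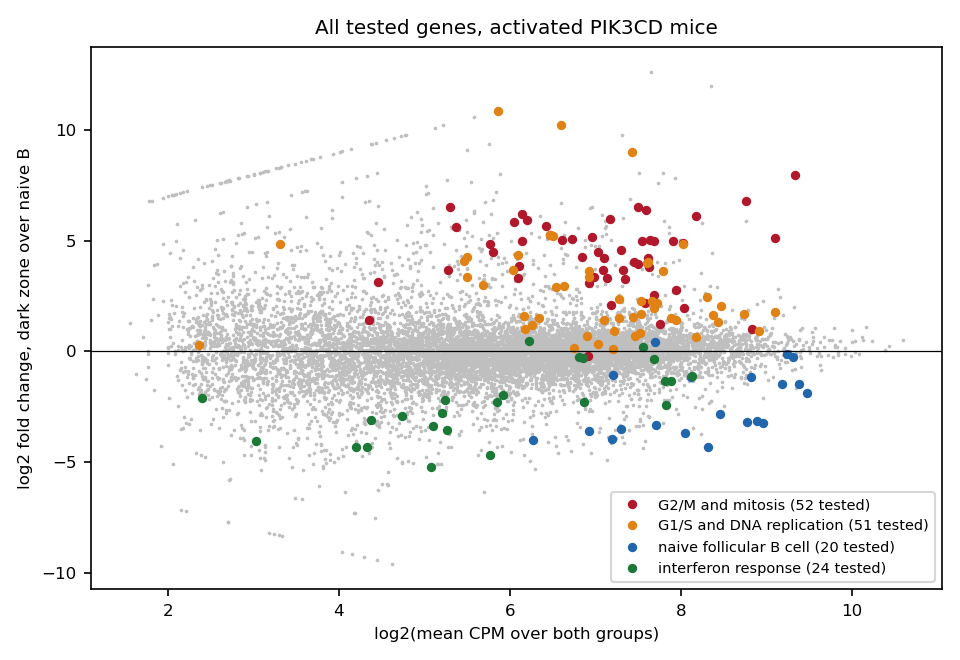
Each point is a tested gene, with log2 of the mean CPM over both groups on the x axis and the log2 fold change of dark zone over naive B on the y axis. G2/M genes (red, except Pttg1) and replication genes (orange) lie above 0 across the range of levels, naive genes (blue) and interferon genes (green) mostly lie below 0, and the straight line of points at the upper left holds genes at 0 in every naive library.

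Genes that hold cells out of the cycle fell in 12 of 16 tested cases, and 1 rose, with a median log2 fold change of -1.16. Tsc22d3 had 244, 134, 156 and 221 CPM in dark zone libraries, against 816, 757, 865 and 779 CPM in naive libraries (log2 fold change -2.08, SE 0.16, adjusted p = 1.26e-06). Tsc22d3 encodes GILZ, a glucocorticoid-induced regulator. Slfn2 reached 83.4, 62.6, 93.5 and 101 CPM in dark zone libraries, against 531, 454, 496 and 468 CPM in naive libraries, a log2 fold change of -2.51 (SE 0.14, adjusted p = 1.07e-07). Slfn2, a Schlafen family gene of quiescent lymphocytes, was lower in each dark zone library than in any naive library. Btg1 (-1.16) and Btg2 (-1.06), antiproliferative adaptors, Cdkn1b (-3.37), the p27 inhibitor, and Pik3ip1 (-4.00), an inhibitor of PI3K, fell as well. Pik3ip1 stood at -5.31 without dark zone number 4. Cdkn2c (1.54), the p18 inhibitor, rose, but had an adjusted p of 0.0636 without dark zone number 1, and Cdkn1a (1.06, adjusted p = 0.231) was not called.

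Antibody gene mutation and DNA repair genes mostly rose or were not called. Of 19 genes of hypermutation, class switching and mismatch repair, 9 rose (47.4%) and none fell, against 22.2% and 21.4% of all genes tested. However, 2 of the list were called lower without dark zone number 1 and 2 without naive number 2. Hmces measured 927, 997, 1086 and 931 CPM in dark zone and 143, 102, 146 and 162 CPM in naive libraries (log2 fold change 2.83, SE 0.13, adjusted p = 3.63e-08). Hmces, a shield of abasic sites, was higher in each dark zone library than in any naive library. Exo1 (4.02), an exonuclease of mismatch repair, Lig4 (3.27), the end-joining ligase, and Ung (3.90), which removes uracil, rose, and Ung stood at 5.13 without naive number 2. Polh (1.99), an error-prone polymerase, was called higher but lost its call without any 1 of 5 libraries. The end-joining genes Xrcc5 (-0.50, adjusted p = 0.0549) and Xrcc6 (-0.44, adjusted p = 0.141) were not called. Of 22 homologous recombination and Fanconi genes, 17 rose and 1 fell (Rad51d, -1.09, not called without any 1 of 3 libraries), with a median of 2.45. Rad54l had 130.2, 113, 159 and 183 CPM in dark zone libraries, against 2.31, 2.52, 11.1 and 16.7 CPM in naive libraries (log2 fold change 4.14, SE 0.48, adjusted p = 2.7e-05). Rad54l, a motor protein of recombination, rose with Brca1 (4.03). Their log2 fold changes were 4.77 for Rad54l without naive number 4 and 4.72 for Brca1 without naive number 2.

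Components of the PI3K pathway split evenly, with 6 of 29 higher and 6 lower and a median log2 fold change of 0.07, so their share of calls (20.7% in each direction) was near that of all genes. Pik3cd, the gene under study, had 196, 262, 166 and 260.1 CPM in dark zone libraries, against 116, 208, 95.1 and 162 CPM in naive libraries. The groups overlapped, and the difference was not called (log2 fold change 0.60, SE 0.24, adjusted p = 0.055), although it passed in 8 of 18 alternative analyses. This count does not separate the activated allele from the normal one. The level of Rps6kb1 was 415, 443, 386 and 364 CPM in dark zone libraries, against 196, 185, 186 and 172 CPM in naive libraries, a log2 fold change of 1.12 (SE 0.11, adjusted p = 5.75e-06). Rps6kb1, the S6 kinase downstream of mTOR, separated without overlap. Inpp5d measured 289, 306, 374 and 362 CPM in dark zone and 202, 176, 182 and 239 CPM in naive libraries (log2 fold change 0.74, SE 0.14, adjusted p = 0.000824). Inpp5d is SHIP1, the phosphatase that removes the product of PI3K. Akt1 rose (0.67), while Akt2 (-0.88) fell, with an adjusted p of 0.0523 without dark zone number 3 and 0.0548 without naive number 2. Pik3r5 had 0.531, 7.16, 9.65 and 1.96 CPM in dark zone libraries, against 25.4, 50.8, 29.9 and 65.0 CPM in naive libraries (log2 fold change -3.21, SE 0.64, adjusted p = 0.00154). Pik3r5, a regulatory subunit of the p110 gamma enzyme, and Pik3r4 (-1.12), which works with Vps34, fell, and Pik3r5 stood at -3.86 without dark zone number 3. Pik3cb, the p110 beta subunit, had 13.3, 13.4, 14.8 and 13.7 CPM in dark zone libraries, against 0, 0, 1.23 and 0 CPM in naive libraries, a ratio of 46.4 from 3 naive counts, all in number 3 (95% counting interval 15.3 to 229.8).

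Most FOXO1 targets fell, but not all. Of 12 tested, 8 fell (66.7%) and 2 rose (16.7%), against 21.4% and 22.2% of all genes tested. The median log2 fold change was -2.65, and the list holds genes of both populations. Klf2, Ccr7 and S1pr1, described above, fell with Sesn1 (-2.05), a stress-induced regulator of mTOR, and Ccng2 (-0.73), an atypical cyclin, whereas Bcl6 rose. Foxo1 itself was not called (0.20, SE 0.10, adjusted p = 0.135). Irs2 was not called (0.04).

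Receptors that place B cells in the follicle changed in both directions, with 5 of 19 higher (26.3%) and 10 lower (52.6%). Over all genes tested these shares were 22.2% and 21.4%. For Itgb7, values were 14.9, 18.8, 12.6 and 32.6 CPM in dark zone libraries, against 233, 239.9, 219 and 287 CPM in naive libraries, a log2 fold change of -3.63 (SE 0.26, adjusted p = 5.24e-07). Itgb7 is an integrin of gut homing. Cnr2 (-3.07), a cannabinoid receptor, Ccr6 (-3.61), Cxcr5 (-0.92), the receptor for the follicle chemokine, and Itga4 (-1.71) fell, and Ccr6 stood at -5.01 without dark zone number 4. Gna13 rose (1.13). It is the G protein through which S1pr2 signals.

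Survival genes changed in both directions too: 7 of 19 rose (36.8%) and 4 fell (21.1%), against 22.2% and 21.4% of all genes tested. Bad measured 130.2, 123, 93.5 and 106 CPM in dark zone and 41.2, 43.7, 43.0 and 34.5 CPM in naive libraries (log2 fold change 1.48, SE 0.20, adjusted p = 7.46e-05). Bad opposes the survival proteins of the BCL2 family. Bak1 (3.02), Bcl2l11 (1.07), which encodes BIM, and Apaf1 (1.40) promote death and rose, while the anti-apoptotic Mcl1 (-0.34) and Bcl2 fell. Bak1 stood at 4.03 without naive number 2, and Bax (-0.17, adjusted p = 0.489) was not called. Gpr137 on the opposite strand overlaps 20.5% of the exonic bases of Bad, and reads of the partners cannot be told apart in these counts.

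Of 26 B cell transcription factors, 11 rose (42.3%) and 5 fell (19.2%), against 22.2% and 21.4% of all genes tested. Ikzf3 had 509, 595, 518 and 587 CPM in dark zone libraries, against 304, 305, 316 and 337 CPM in naive libraries (log2 fold change 0.81, SE 0.09, adjusted p = 2.72e-05). Ikzf3 is Aiolos. Bach2 (0.88), a repressor of plasma cell fate, and Pou2af1 (0.62), the octamer coactivator, rose. Irf4 (-1.74), a plasma cell factor, Foxp1 (-1.16), a factor of naive B cells, and Lef1 (-3.01) fell, Lef1 with 2 dark zone counts left without dark zone number 1. Pax5 (-0.12, adjusted p = 0.447) and Ebf1 (-0.13, adjusted p = 0.495), which maintain B cell identity, were not called. Of 24 genes of the B cell receptor and its signalling, 3 rose (12.5%) and 9 fell (37.5%). All genes tested gave 22.2% and 21.4%, and the list's median was -0.18. Prkcb reached 218, 209, 167 and 199 CPM in dark zone libraries, against 466, 492, 543 and 561 CPM in naive libraries, a log2 fold change of -1.37 (SE 0.11, adjusted p = 1.89e-06). Prkcb, a kinase that links the receptor to NF-kB, and Btk (-1.44), Lyn (-0.66) and Malt1 (-0.72) fell, while Syk (-0.17, adjusted p = 0.205) was not called. Cd79b (0.31) was called higher, but not without dark zone number 3 (adjusted p = 0.0561) or naive number 4 (adjusted p = 0.0545). Without dark zone number 3, 1 gene of the list was higher.

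Chromatin regulators rose in 10 of 22 cases (45.5%) and 2 fell (9.09%), against 22.2% and 21.4% of all genes tested. Ezh2 measured 373, 428, 375 and 372 CPM in dark zone and 59.7, 55.9, 57.0 and 88.0 CPM in naive libraries (log2 fold change 2.57, SE 0.16, adjusted p = 2.09e-07). Ezh2, the Polycomb methyltransferase of germinal centre B cells, and Dnmt1 (2.67), the maintenance DNA methyltransferase, separated without overlap. Uhrf1 had 166, 203, 163 and 179 CPM in dark zone libraries, against 7.32, 8.40, 0.410 and 2.60 CPM in naive libraries (log2 fold change 5.23, SE 0.44, adjusted p = 2.09e-06). Uhrf1, the partner of Dnmt1, is also on the replication list, and Nsd2 (3.40), a histone H3 methyltransferase, rose. Ezh1 (-1.62), a second Polycomb methyltransferase, and Tet2 (-1.90), which oxidises methylated DNA, fell.

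Light zone activation genes fell in 9 of 18 cases (50%) and 3 rose (16.7%), against 21.4% and 22.2% of all genes tested. The level of Myc was 51.0, 37.6, 69.8 and 116 CPM in dark zone libraries, against 180.2, 205, 201 and 212 CPM in naive libraries, a log2 fold change of -1.53 (SE 0.27, adjusted p = 0.000651). Myc, the growth regulator of selected cells, was lower than in resting naive cells. Ccnd2 measured 34.0, 24.2, 58.6 and 88.6 CPM in dark zone and 245, 214, 199 and 155 CPM in naive libraries (log2 fold change -1.97, SE 0.32, adjusted p = 0.000338). Ccnd2 is a D-type cyclin. Nfkb2 had 43.1, 70.7, 51.2 and 80.2 CPM in dark zone libraries, against 169, 181, 169 and 199.9 CPM in naive libraries (log2 fold change -1.56, SE 0.20, adjusted p = 6.5e-05). Nfkb2 and Relb (-1.53) form the noncanonical NF-kB dimer, and Cd40 (-0.88) is the receptor for T cell help. With the depth covariate, Myc, Ccnd2, Relb and Cd40 kept their sign and lost their call. Cd86 (0.65) and Traf1 (1.10) rose.

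Calls among MHC class II genes went both ways: 2 of 13 rose (15.4%) and 5 fell (38.5%), against 22.2% and 21.4% of all genes tested. For H2-Oa, values were 156, 132, 151 and 137 CPM in dark zone libraries, against 285, 271, 288 and 278 CPM in naive libraries, a log2 fold change of -0.96 (SE 0.12, adjusted p = 3.39e-05). H2-Oa restrains peptide loading, and 22.8% of its exonic bases overlap another gene. Ctss (-0.57), the protease that trims the invariant chain, fell. Cd74, the invariant chain, and H2-Ab1 were called higher by 0.49 each, but their log2 fold changes were -0.09 and -0.02 with the depth covariate. Cd74 reached 1.5 counts per exonic base.

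Most immunoglobulin constant genes of switched classes rose. Ighg1 measured 261, 511, 318 and 363 CPM in dark zone and 2.31, 0.840, 0.410 and 1.49 CPM in naive libraries (log2 fold change 8.07, SE 0.35, adjusted p = 1.44e-08). Ighg2b had 369.9, 505, 881 and 771 CPM in dark zone libraries, against 20.0, 42.4, 16.8 and 35.3 CPM in naive libraries (log2 fold change 4.46, SE 0.33, adjusted p = 7.65e-07). Ighg3 reached 313, 522, 336 and 422 CPM in dark zone libraries, against 52.4, 22.7, 11.5 and 10.4 CPM in naive libraries, a log2 fold change of 4.03 (SE 0.41, adjusted p = 9.74e-06). Ighg3 stood at 4.74 without naive number 1. IgG1, IgG2b and IgG3 transcripts thus separated the populations in each library. Ighe had 9.04, 17.9, 23.0 and 27.4 CPM in dark zone libraries, against 0 CPM in all 4 naive libraries, at least 65.1-fold higher. Ighg2c was called higher (4.34, adjusted p = 0.0152), but its adjusted p was 0.106 without dark zone number 4, and all but 1 of its naive counts were in naive number 4. Igha was not called (0.63, adjusted p = 0.236). In all, 9 of 12 constant genes rose and only Ighd fell. Igkc (0.74) and Ighm (0.50) reached 1.88 and 1.76 counts per exonic base, and 4 of the constant genes kept a higher call with the depth covariate. Of 13 plasma cell genes tested, 6 rose (46.2%) and 5 fell (38.5%), against 22.2% and 21.4% of all genes tested. Jchain measured 773, 995, 955 and 695 CPM in dark zone and 16.2, 17.2, 11.5 and 11.5 CPM in naive libraries (log2 fold change 5.92, SE 0.18, adjusted p = 6.92e-10). Jchain joins IgA and IgM monomers. Slamf7 (1.41), a surface receptor, Edem1 (1.17) and Ell2 (1.56) rose, whereas Sdc1 (-4.57), the plasma cell marker CD138, and Tnfrsf13b (-1.17), the receptor TACI, fell, and Tnfrsf17 was at 0 in all dark zone libraries. Sdc1 had 1 count outside number 4 among dark zone libraries.

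Mitochondrial genes were higher in dark zone libraries, which were also shallower than naive libraries. Of 9 tested mitochondrially encoded genes, 9 rose, with a median log2 fold change of 1.06. mt-Cytb had 1027, 1625, 1499 and 1272 CPM in dark zone libraries, against 693, 733, 725 and 625 CPM in naive libraries (log2 fold change 0.97, SE 0.12, adjusted p = 5.69e-05). Among dark zone libraries mt-Cytb, a subunit of complex III, was lowest in number 1, the deepest, and highest in number 2, the shallowest. Mitochondrial genes held 0.610% to 1.03% of counts in dark zone libraries, against 0.336% to 0.448% in naive libraries. With the depth covariate none of the 9 was called and the median was 0.20. Against light zone libraries, which were similar in depth and also came from germinal centre cells, the median was 0.004. Depth and population cannot be told apart by these values, and the cause was not tested.

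Nuclear genes of oxidative phosphorylation rose in 56 of 74 cases and 1 fell (Sdha, -0.53), with a median log2 fold change of 0.66. The level of Sdhb was 450.2, 503, 518 and 426 CPM in dark zone libraries, against 245, 239.9, 259.8 and 228 CPM in naive libraries, a log2 fold change of 0.96 (SE 0.10, adjusted p = 1.24e-05). Sdhb, a subunit of complex II, and Cox6b1 (1.01), Cox4i1 (0.96) and Uqcr10 (1.23), of complexes III and IV, were higher in each dark zone library than in any naive library. With the depth covariate 3 of the 74 kept a higher call and the median was 0.40. Cytosolic ribosomal protein genes rose in 31 of 77 cases (40.3%, against 22.2% of all genes tested) and 1 fell, with a median of 0.55. The count of higher genes was 17 without dark zone number 2, and 20 without dark zone number 3, naive number 1 or naive number 4. With the covariate none was called and the median was -0.04. Rpl8 (0.78), of the large subunit, rose without the covariate and had 0.03 with it.

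**Figure D3:**
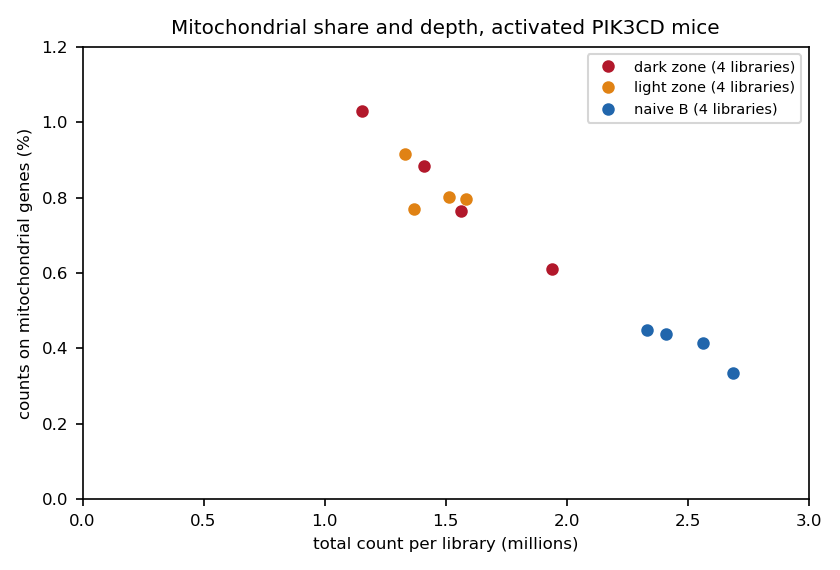
Share of counts on mitochondrial genes (y axis, percent) against the total count of each library (x axis) for dark zone (red), light zone (orange) and naive (blue) libraries of aPIK3CD mice. Naive libraries, with 0.336% to 0.448%, are deeper than all dark zone libraries, and within the dark zone group the share falls as depth rises. Light zone libraries, with 0.771% to 0.916%, do not follow that order.

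Growth and metabolic genes gave mixed counts. Of 37 MYC targets and ribosome biogenesis genes, 8 rose (21.6%) and 4 fell (10.8%), against 22.2% and 21.4% of all genes tested. The list's median was 0.06, and 2 members were lower without any 1 of 5 libraries. Odc1 measured 136, 119.9, 148 and 119.9 CPM in dark zone and 45.4, 33.2, 63.1 and 53.9 CPM in naive libraries (log2 fold change 1.42, SE 0.21, adjusted p = 0.000207). Odc1 makes polyamines. Ncl (0.54) and Pa2g4 (0.76) rose, and Nop2 (-0.95), a nucleolar methyltransferase, fell. Of 20 glycolysis and pentose phosphate genes, 4 rose (20%) and 5 fell (25%), near the shares of all genes tested. Tpi1 had 329.5, 312, 326 and 329 CPM in dark zone libraries, against 141, 100.4, 123 and 152 CPM in naive libraries (log2 fold change 1.33, SE 0.14, adjusted p = 1.09e-05). Tpi1, triosephosphate isomerase, and Ldha (0.68), lactate dehydrogenase, rose, whereas Slc2a1 (-1.85), the glucose transporter GLUT1, Hk1 (-1.48), Pfkl (-0.86) and G6pdx (-0.87) fell. Cholesterol synthesis genes rose in 10 of 23 cases (43.5%, against 22.2% of all genes tested), with a median of 0.94. Of these 23, 1 fell (Ebp, -0.67). For Cyp51, values were 302, 227, 212 and 227 CPM in dark zone libraries, against 82.0, 86.1, 104 and 111 CPM in naive libraries, a log2 fold change of 1.34 (SE 0.16, adjusted p = 3.83e-05). Cyp51 demethylates lanosterol, and Pmvk (1.52), an earlier enzyme of the pathway, rose too. With the depth covariate 4 of the 23 kept a higher call.

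Interferon response genes fell in 19 of 24 cases and none rose, with a median log2 fold change of -2.28. Irf9 measured 133, 115, 145 and 147 CPM in dark zone and 334, 332, 351 and 335 CPM in naive libraries (log2 fold change -1.32, SE 0.12, adjusted p = 3.23e-06). Irf9 is the DNA-binding subunit of the ISGF3 complex. Oasl1 had 1.06, 2.68, 0 and 3.26 CPM in dark zone libraries, against 56.6, 76.9, 64.8 and 65.4 CPM in naive libraries (log2 fold change -5.21, SE 0.51, adjusted p = 6.96e-06). Oasl1 restrains Irf7 translation. Igtp reached 58.5, 36.7, 26.7 and 35.2 CPM in dark zone libraries, against 227, 145, 176 and 231 CPM in naive libraries, a log2 fold change of -2.29 (SE 0.25, adjusted p = 1.59e-05). Igtp, whose promoter is printed above, and Oasl2 (-3.57), Ifit3 (-3.37), Rtp4 (-4.68) and Mx1 (-4.33) fell. Rtp4 stood at -6.02 without dark zone number 3, and all dark zone counts of Mx1 were in number 4, without which it was at least 51.1-fold lower. Stat2 (-0.30, adjusted p = 0.268) and Irf7 (-0.27, adjusted p = 0.44) were not called. With the depth covariate 3 of the 24 kept a call, with a median of -1.81. Against light zone cells, 1 of 15 tested members was lower (Ifi47, -1.05).

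GIMAP GTPases, survival genes of resting lymphocytes, fell in 7 of 8 cases, with a median of -1.47. Gimap3 measured 108, 86.8, 106 and 147 CPM in dark zone and 525, 571, 535 and 527 CPM in naive libraries (log2 fold change -2.26, SE 0.14, adjusted p = 2.24e-07). Gimap9 was the one not called (0.13, adjusted p = 0.455). Gimap1 (-0.78) shares 36.0% of its exonic bases with an antisense gene. Immediate early and stress genes fell in 7 of 12 cases (58.3%, against 21.4% of all genes tested) and none rose. Ier2 had 42.0, 51.9, 63.8 and 69.7 CPM in dark zone libraries, against 216, 223, 207 and 211 CPM in naive libraries (log2 fold change -1.92, SE 0.18, adjusted p = 4.21e-06). Ier5 (-1.93), Zfp36 (-1.75), which destabilises mRNA, and Jun (-3.14) fell, while Fos (0.02, adjusted p = 0.959) and Dusp1 (-0.07, adjusted p = 0.831) were not called.

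**Figure D4:**
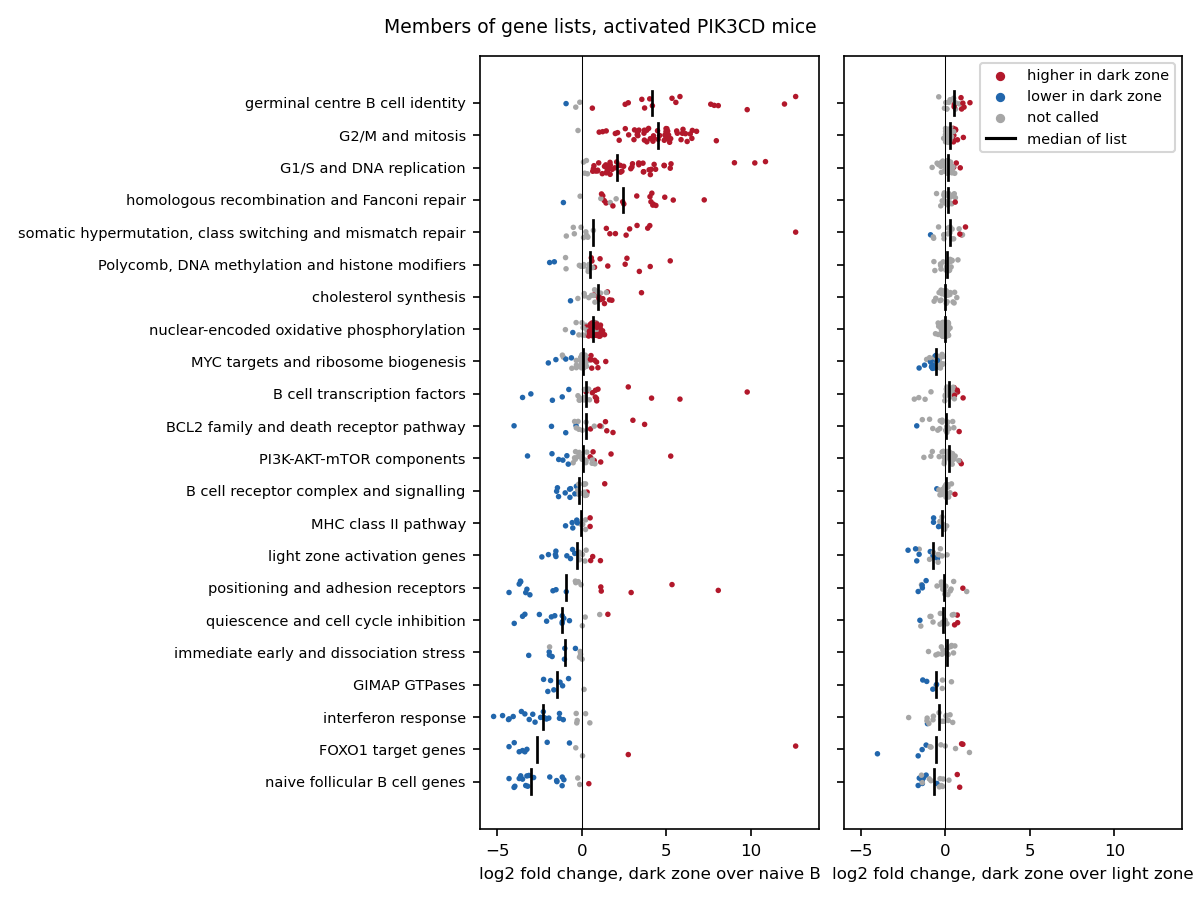
Members of 22 gene lists by log2 fold change of dark zone over naive B (left) and of dark zone over light zone (right), with red for higher, blue for lower and grey for not called, and a black line at each list's median. G2/M genes have a median of 4.50 against naive cells and 0.26 against light zone cells, and naive genes -2.99 and -0.67.

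Markers of NK cells were lower in dark zone libraries. All 7 NK cell markers were detected in both groups and fell, and they summed to 3.58 to 108 CPM in dark zone libraries, against 230.0 to 497 CPM in naive libraries. The list's median log2 fold change was -3.48, and -5.72 without dark zone number 4. With dark zone number 2 left out, 4 of the 7 were called. The level of Ncr1 was 0, 0, 0 and 5.87 CPM in dark zone libraries, against 52.4, 44.95, 74.6 and 35.3 CPM in naive libraries, a log2 fold change of -5.03 (SE 0.82, adjusted p = 0.000358). Ncr1 encodes the NK receptor NKp46. All its dark zone counts were in number 4, and without that library it was at least 75-fold lower. Klre1 had 0, 0, 0 and 0.652 CPM in dark zone libraries, against 46.2, 37.0, 47.9 and 14.1 CPM in naive libraries, a ratio of naive to dark zone of 211 from 1 dark zone count (95% counting interval 37.7 to 8363). Klre1 and Klra7 are NK receptors that stand among the 12 largest falls. Klra7 had 0 CPM in all 4 dark zone libraries, against 35.8, 58.0, 67.2 and 13.0 CPM in naive libraries, at least 85.3-fold lower. Among dark zone libraries, number 4 had the most NK signal. The part of NK cells in the falls of other genes was not tested.

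Markers of other cell types gave smaller counts of calls. The 11 T cell markers summed to 302 to 406 CPM in dark zone libraries, against 152 to 281 CPM in naive libraries, and most of that sum was Lck, a kinase of antigen receptor signalling, which rose (1.03). The other 10 summed to 16.1 to 44.1 CPM in dark zone libraries, against 14.3 to 98.2 CPM in naive libraries. Cd247, a chain of the T cell receptor complex, fell (-2.23, adjusted p = 0.0126), with an adjusted p of 0.0546 without naive number 3. Pou2f1 on the opposite strand overlaps 60.3% of the exonic bases of Cd247, and reads of the partners cannot be told apart in these counts. Cd3d (-1.17, adjusted p = 0.274) and Trac (-0.09, adjusted p = 0.955) were not called. Myeloid markers summed to 58.5 to 182 CPM in dark zone libraries, against 31.1 to 160.1 CPM in naive libraries, with Ly6g and Camp at 0 in all. Of 7 tested, 2 rose (Cd68, 1.65, and Vcam1, 2.36) and 1 fell (Ly6c2, -3.41). These shares, 28.6% and 14.3%, were near the 22.2% and 21.4% of all genes tested. Cd68 lost its call in 10 of 18 alternatives, Vcam1 lost it without dark zone number 2 (adjusted p = 0.0527) or number 4 (adjusted p = 0.0677), and Ly6c2 stood at -5.53 without dark zone number 4. Of 8 dendritic cell markers only Flt3, a cytokine receptor, was tested. Flt3 measured 113, 77.9, 101 and 91.2 CPM in dark zone and 2.31, 0.840, 8.20 and 3.34 CPM in naive libraries (log2 fold change 4.68, SE 0.47, adjusted p = 7.87e-06). Its log2 fold change was 5.40 without naive number 3. Siglech, Clec9a, Itgax and Clec10a were at 0 in all dark zone libraries. Erythroid markers summed to 9.78 to 55.5 CPM in dark zone libraries, against 3.85 to 11.3 CPM in naive libraries, with Slc4a1 at 0 in all, and Hbb-bt rose (1.95, adjusted p = 0.0111), with an adjusted p of 0.0522 without dark zone number 2. Marginal zone and B-1 markers summed to 299 to 384 CPM in dark zone libraries, against 604 to 767 CPM in naive libraries. Of 7 tested, 2 fell, Cd1d1 (-3.29) and Plac8 (-2.15), a share of 28.6% near the 21.4% of all genes tested. Cd1d1 stood at -3.99 without dark zone number 4.

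**Figure D5:**
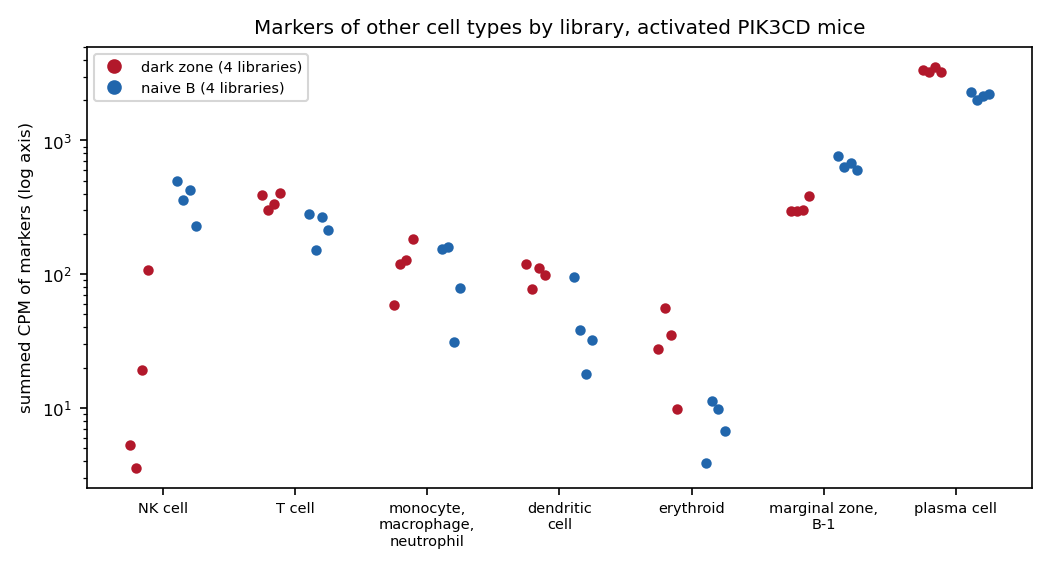
Summed CPM of marker lists (log axis) in each dark zone (red) and naive (blue) library. NK markers reach 3.58 to 108 CPM in dark zone libraries and 230.0 to 497 CPM in naive libraries. Plasma cell genes lie at 3242 to 3542 CPM in dark zone and 2009 to 2285 CPM in naive libraries. Of these sums, Jchain alone gives 695 to 995 CPM in dark zone and 11.5 to 17.2 CPM in naive libraries. Among the 13 plasma cell genes tested, 6 rose (46.2%) and 5 fell (38.5%), against 22.2% and 21.4% of all genes tested.

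Among the 12 largest rises were Gcsam, Mcm10, Hbb-bh1, Cdc6, Zdhhc2, Pif1, Gnaz, Mybl1, E2f7, Rflna and Emp2. These genes were at 0 or at 1 to 3 counts over the naive libraries. Hbb-bh1, an embryonic globin gene, had 108, 119.9, 99.5 and 56.1 CPM in dark zone libraries, against 0 CPM in all 4 naive libraries, at least 323-fold higher. The erythroid markers, Hbb-bt included, also had higher sums in dark zone libraries, as given above, and their part in this value was not tested. E2f7, a repressor of E2F targets, had 38.8, 69.8, 50.5 and 60.0 CPM in dark zone libraries, against 0 CPM in all 4 naive libraries, at least 185-fold higher. Pif1, a DNA helicase, was at least 234-fold higher, Zdhhc2, a palmitoyltransferase, at least 251-fold, and Gnaz, a G protein subunit, at least 186-fold. Rflna was at least 179-fold and Emp2, a tetraspan protein, at least 169-fold higher.

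The 12 largest falls were Gpat3, Klra7, Slc16a7, Lilra6, Oas2, Mx2, Socs3, Dok2, Vav3, Spns2, Klre1 and Itih5. Gpat3, a glycerol-3-phosphate acyltransferase, had 0 CPM in all 4 dark zone libraries, against 25.4, 46.6, 46.3 and 78.8 CPM in naive libraries, at least 96.6-fold lower, and 37.4% of its exonic bases overlap another gene. Oas2 and Mx2, which are interferon-induced, were at least 64.7-fold and 38.8-fold lower. Slc16a7, a monocarboxylate transporter, was at least 77.1-fold, Lilra6 at least 69.8-fold, Socs3, a cytokine signal suppressor, at least 35.8-fold and Dok2 at least 25.6-fold lower. Vav3, a guanine nucleotide exchange factor, had 0, 0, 0 and 0.652 CPM in dark zone libraries, against 40.8, 55.0, 29.1 and 45.7 CPM in naive libraries. Spns2, a sphingosine 1-phosphate transporter, had 0.531, 0, 0 and 0 CPM in dark zone libraries, against 34.7, 48.7, 25.0 and 36.0 CPM in naive libraries.

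Light zone libraries of the same genotype show which of these differences also separate the germinal centre zones. The comparisons share the 4 dark zone libraries, and values are given side by side. Of 9798 genes tested against light zone cells, 285 were higher (2.91%) and 307 lower (3.13%) in dark zone cells. Gcsam averaged 646 CPM in dark zone and 235 CPM in light zone libraries and rose by 1.46 and Hmces by 0.86 over light zone cells on the log2 scale. Cxcr4 rose by 1.04 (adjusted p = 0.0263) over light zone cells, although it was not called against naive cells. Foxo1 (0.55), Bach2 (1.05), Akt1 (0.86) and Foxp1 (0.71) rose over light zone cells, and Foxp1 fell against naive cells.

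Of the G2/M genes, 9 of 52 rose over light zone cells and none fell, with a median of 0.26, and 3 of 50 replication genes rose, with a median of 0.17. Over all genes tested against light zone cells, 2.91% rose and 3.13% fell. Of 17 light zone genes, 8 fell, among them Ccnd2 (-2.20) and Myc (-1.55). Of 36 MYC targets, 16 fell against light zone cells and none rose, with a median of -0.52, whereas Ncl and Pa2g4 rose against naive cells and fell against light zone cells. Ighg1 fell by 1.19 against light zone cells. Of the naive genes, 7 of 20 fell and 2 rose, with Fcer2a at -1.54, Ccr7 at -1.60 and S1pr1 at -1.37. No mitochondrial, ribosomal or oxidative phosphorylation gene was called. Emp2 (2.64) and Hbb-bh1 (2.65) also rose over light zone cells.

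Whether the difference between dark zone and naive cells depends on genotype was tested as the interaction with WT mice, over 16 libraries. Of 11328 genes tested, 0 were called (0%) by edgeR's quasi-likelihood test, 558 had an unadjusted p below 0.05 (4.93%), and DESeq2 called 7. One WT dark zone library, number 3, held only 25797 counts, and 0 genes were called without it. The smallest p was that of Ighv8-8, an antibody variable segment (difference 5.07, SE 0.83, adjusted p = 0.0548). Satb1 differed by -1.71 (SE 0.31, adjusted p = 0.0683): it was -3.94 in aPIK3CD mice and -2.23 in WT mice. Cdc6 differed by 6.14 (SE 1.10, adjusted p = 0.0683), with 0 to 16.1 CPM in WT naive libraries. Gm13684, Angptl4 and Wls followed, with adjusted p of 0.0864, 0.174 and 0.365. For Pik3cd the difference was 0.74 (SE 0.39, adjusted p = 1), so dark zone over naive was 0.62 in aPIK3CD mice and -0.12 in WT mice. These values do not show that the genotypes act alike.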

How the data were processed

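The authors deposited raw counts per gene for 32 libraries, made from 500 sorted cells each with SMART-Seq v4 per the labels. The submitters' processing notes name STAR 2.4.2a, HTSeq and Picard; their roles, strand setting and the genome build are not given in the sources used here. Libraries were grouped by title. Within each of the 5 groups compared, no pair of libraries agreed within sampling noise, so none is a copy of another. Each was entered as a separate sample, but this check does not show that they came from separate mice. Genes passed edgeR's filterByExpr (minimum count 10, minimum total 15), were normalised by TMM and tested with the quasi-likelihood F test (edgeR 4.0.16, R 4.3.3), two-sided, within the groups compared and without a replicate block. Standard errors are the absolute log2 fold change over the square root of F. Zero groups were set at 3 counts over the group for bounds. The code was tested on simulated data with known changes, without WT dark zone number 3. Far fewer genes were changed there than were called against naive cells, so scaling under so many changes was not tested. Exon lengths and overlaps came from GENCODE M21, and promoters from RefSeq (GRCm38.p6), matched by symbol, first start site per gene. Ids without a gene name held 0.111% to 0.250% of counts in the 8 libraries.

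Genes named were 16 population genes, the 12 largest changes in each direction (mean of at least 10 CPM, no overlap, no predicted or antigen receptor genes), up to 5 members per list by smallest p, and 6 interaction genes. Other list members are named as examples, chosen after their values were seen. Some genes are not reported here. The members and the 33 lists were chosen with earlier results of these data known. Alternatives were other scalings, DESeq2 1.42.0, no filter, no antigen receptor genes, thinned libraries, a replicate block, 1 fit over all groups, each library left out, number 1 left out, and a depth covariate added after seeing the data. Replicate numbers did not pair the libraries by the bar set (every same-numbered correlation of deviations over 0.1).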

Additional observations from a re-analysis of the deposited data

Results flagged for a closer look

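In 18 of 310 groups of 4 libraries examined, 1 library stood apart from the other 3 by Dixon's test; chance alone gives about 1 in 20. Among dark zone libraries, number 4 was high for Fcer2a (154 CPM, the others 74.3 to 83.1), Ly6c2 (13.7, the others 0 to 2.23) and Prf1 (11.1, the others 0 to 1.79), and low for Rgs13 (297, the others 493 to 526). That library also had the highest sums of NK cell and naive B cell genes among dark zone libraries. Number 2, the shallowest, was low for Edem1 (334 CPM, the others 434 to 448) and Ifi47 (102, the others 134 to 140.3), and high for Ezh2 (428, the others 372 to 375). Brca2 was high in number 3 (162 CPM, the others 108 to 116) and G6pdx in number 1 (86.6, the others 68.0 to 70.4).

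Among naive libraries, number 2 was low for Casp8 (276 CPM, the others 305 to 308), Gpr183 (305, the others 404 to 410.1) and Lilra6 (17.2, the others 40.1 to 43.4). It was high for Rif1 (149.98 CPM, the others 119 to 124), Rpl13a (32.3, the others 23.1 to 23.8) and Zbtb32 (21.8, the others 1.11 to 3.69). Ezh2 was high in number 4 (88.0 CPM, the others 55.9 to 59.7), Ncl in number 3 (806, the others 667 to 682) and S1pr2 in number 1 (5.39, the others 0 to 0.840).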

How the results depend on the processing

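For dark zone against naive cells, the counts of higher genes ran from 1908 to 2798 and of lower genes from 1828 to 2608 over the alternatives other than the depth covariate, within 1.5 times of 2320 and 2243; each library left out in turn gave 2033 to 2357 higher and 1957 to 2251 lower. The added depth covariate gave 610 and 339; the covariate follows the groups, so it removes precision as well. Cd74 and H2-Ab1 turned to -0.0896 and -0.0168 under it. Of 161 named genes called, 159 kept their sign and 95 their call with the covariate. Outside it, Cd68 lost its call in 9 alternatives and Cd247, Cd74, H2-Ab1, Hbb-bt, Prf1 and Vcam1 in 1 or 2, and Pik3cd gained one in 8. A replicate block gave 2439 higher and 2297 lower; same-numbered deviations correlated at 0.0381, 0.146, 0.0485 and 0.119, not all over 0.1. Dark zone numbers 2, 3 and 4 correlated best with their own naive number and number 1 with naive number 3. Against light zone the correlations were 0.249, 0.23, 0.0524 and 0.0617, and all 4 correlated best with their own number. The column names also give each number 1 letter that all 4 populations share. The digit after that letter is the same within a population and differs between populations, so it cannot be told apart from population. The column names do not say what letter or digit means, or that a number is 1 mouse. The main fits therefore stayed without a block.

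For dark zone against light zone, the replicate block gave 442 higher and 517 lower, no filter 387 and 487, DESeq2 379 and 440, 1 fit over all groups 185 and 308 (37.5% of calls higher, against 48.1%), number 1 left out 165 and 154, and each library left out 175 to 286 and 171 to 343, the lowest without light zone number 3 and 191 and 181 without light zone number 4. For the interaction, DESeq2 gave 7 calls, no filter 69, 1 fit over all groups 4, and each library left out 0 to 3; the replicate block gave 0. The causes were not tested. Naive libraries were deeper than dark zone libraries, so low genes at 0 in dark zone cells were limited by depth.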
